A study of Mus musculus with 12 samples.

Results

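The subject is what ovalbumin adds to a mouse lung that has also received ambient particles. The 3 arrays titled OVA/PM were set against 3 arrays titled PM, and the members are all features with a measurable level in at least 1 of these 2 groups, 22428 of 45101 probe sets. Whole lungs of male A/J mice aged 8 to 10 weeks were profiled on Affymetrix whole-genome mouse expression arrays, 12 in all, 3 for each of 4 groups, and lungs were taken 4 days after the particles. OVA/PM mice received ovalbumin, an egg white protein used as an experimental allergen, at 0.4 mg/kg into the peritoneum on day 0 and at 30 mg/kg into the trachea on day 14, and then airborne dust collected in Baltimore (PM), 50 µl of a suspension at 10 mg/ml, into the trachea. Mice of the arrays titled PM received saline (PBS) in place of ovalbumin, followed by the same particles. By the labels, the 2 groups without particles received ovalbumin and PBS (titled OVA) or PBS alone. Nothing in the labels ties arrays of different groups to each other, and p-values measure only the spread between the 3 lungs of a group.

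One doubt about the names of the single-exposure arrays touches every direction given here. For the single exposures, 28 printed fold changes could be recomputed from the deposited arrays. All 28 were matched to 1 decimal when the names OVA and PM were exchanged, and 4 were matched with the names as deposited. Those 4 belong to Rgs9 and Sema7a, for which the same value is printed for both exposures. They match under either naming and do not favor the deposited names. If the names are exchanged, the 3 arrays labelled PM come from ovalbumin-challenged lungs without particles, and the comparison below is particles added to ovalbumin. Likewise the arrays labelled OVA would then come from particle-exposed lungs without ovalbumin. The numbers are the same in both cases, and the OVA/PM arrays carry both exposures in both cases. The group is therefore called "the arrays labelled PM" throughout.

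Levels are given as log2 values after GC robust multichip average (GCRMA) normalization, on which a difference of 1 is a 2-fold change. The median of all values in the table, 4.93, was taken as the floor of measurement: a probe set was tested when all 3 arrays of at least 1 group reached it, and a change from or to a group with no array at the floor is written as "at least" and counted from 4.93. A gene was called when its Benjamini-Hochberg adjusted p from limma was under 0.05. On the 6 arrays the defining lung genes were high and close together, with the surfactant gene Sftpc between 15.4 and 15.71 and the club cell gene Scgb1a1 between 15.85 and 16.11. Hybridization controls stood apart on 1 array: the mean of the BioB control probe sets was 6.65 on OVA/PM replicate 3 and at most 4.68 on the other 11 arrays. That array stays in every value below except where a count is said to be without it.

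An allergic airway response and a response to inhaled particles draw on overlapping cells. Macrophages and epithelium sense particles and release chemokines that call neutrophils and monocytes, whereas allergen in a sensitized animal leads through type 2 cytokines to mucous change of the airway epithelium, eosinophils and a particular macrophage program. Whole-lung RNA reports the sum of these cells, and after normalization each level is relative to the rest of the lung. The number of cells of a type, the RNA per cell and a changed share of other cells therefore cannot be told apart in any value given here.

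Of the 22428 probe sets, 2894 were called (12.9%), 1600 higher (7.13%) and 1294 lower (5.77%) in OVA/PM lungs, and 994 (4.43%) also passed 2-fold, 791 higher (3.53%) and 203 lower (0.905%). With 1 probe set standing for each gene, 1803 of 11339 genes were called (15.9%), 1035 higher (9.13%) and 768 lower (6.77%). The shares of 9.13% and 6.77% are the background for every list count below. The 2 directions differed in size. Rises had a median of 1.03 and falls a median of -0.64, and of the 638 called genes past 2-fold (5.63%) 539 were higher (4.75%) and 99 lower (0.873%). With values under the floor raised to it, 151 called rises and 4 called falls passed 2 on the log2 scale, and 50 rises and none of the falls passed 3. An unadjusted limma p was under 0.05 for 3833 genes. The OVA/PM values of all 1803 called genes lay wholly above or wholly below those of the arrays labelled PM, as did those of 42.3% of all genes tested. The count depended on each array: without 1 of them it lay between 1367 (without replicate 2 of the arrays labelled PM) and 1870 probe sets (without OVA/PM replicate 2), and 1572 were called without OVA/PM replicate 3.

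**Figure D1:**
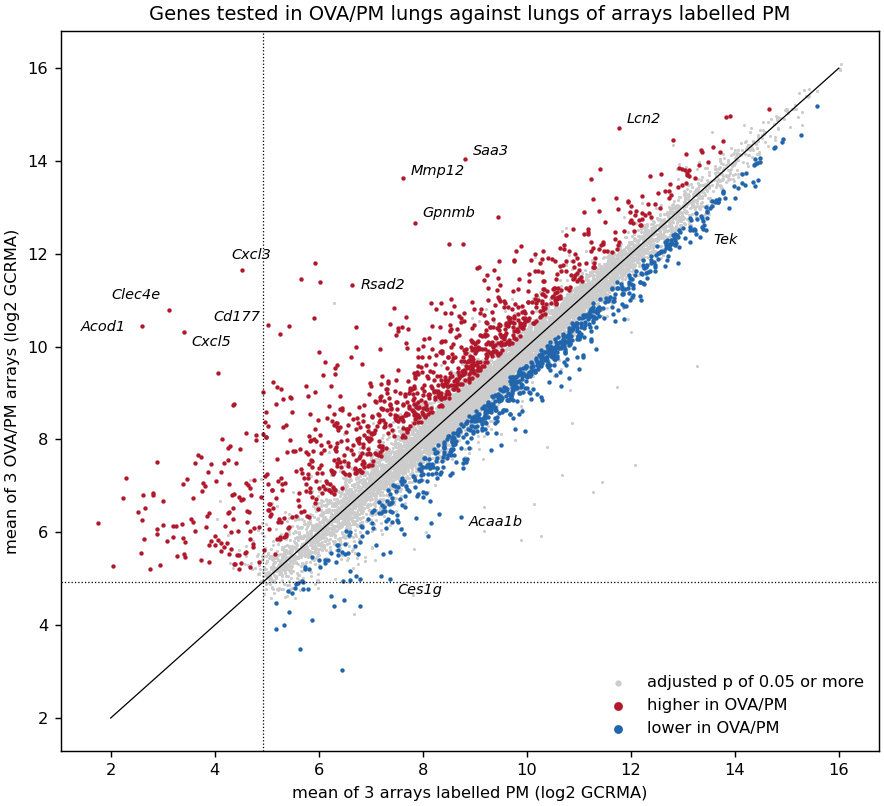
Mean log2 GCRMA level of each of 11339 genes on the 3 OVA/PM arrays (vertical axis) against its mean on the 3 arrays labelled PM (horizontal axis). Red points are the 1035 genes called higher in OVA/PM and blue points the 768 called lower, the diagonal marks equal levels and dotted lines mark the floor of 4.93. The red points reach much farther from the diagonal than the blue ones.

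Genes of activated macrophages were among the largest rises. Acod1, which makes the antimicrobial metabolite itaconate in activated macrophages, read 10.04, 10.72 and 10.59 on the OVA/PM arrays against 2.73, 2.69 and 2.38 on the arrays labelled PM. All 3 arrays labelled PM were under the floor, so the rise was at least 46.0-fold (adjusted p = 6.83e-05). Clec4e, a C-type lectin receptor of myeloid cells, read 10.09, 11.28 and 11.02 in OVA/PM against 3.74, 3.13 and 2.49, a rise of at least 58.4-fold (adjusted p = 0.000539). Clec4d, its partner receptor, read 10.83, 11.93 and 11.59 against 6.44, 5.07 and 5.44, a difference of 5.80 ± 0.41 (SE). Both lectins were far lower on every array labelled PM than on any OVA/PM array. Mmp12, the macrophage elastase, read 13.63, 13.54 and 13.72 in OVA/PM against 7.24, 7.70 and 7.95, which is 64.1-fold (adjusted p = 8.19e-05). Its OVA/PM values differed from each other by less than those of the arrays labelled PM. Slfn4, a Schlafen gene of myeloid cells, was higher by 5.89 ± 0.49 and AA467197, listed under its clone name, by 5.03 ± 0.25.

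Monocyte and macrophage genes rose as a group, 16 of the 20 tested and none lower, with a median difference of 2.32 beside -0.02 over all genes. The scavenger receptor Msr1 was higher by 3.31 ± 0.15, the phagocyte receptor Trem2 by at least 9.21-fold, and Gpnmb, a glycoprotein of lipid- and debris-laden macrophages, by 4.81 ± 0.17. Gpnmb read 12.53, 12.97 and 12.52 in OVA/PM against 7.83, 7.66 and 8.10. Among other genes of the list Cd14, a coreceptor for endotoxin, was higher by 1.84 ± 0.21 and Mpeg1, a pore-forming protein of macrophages, by 1.02 ± 0.12. The 4 that were not called were Trem1, an amplifying receptor of myeloid cells, at 0.88 ± 0.45 (adjusted p = 0.255), and 3 more. Lyz2, the lysozyme of phagocytes, differed by 0.11 ± 0.11 (adjusted p = 0.559), Adgre1, which encodes F4/80, by 0.77 ± 0.32 (adjusted p = 0.165) and Csf1r, the receptor for macrophage growth factor, by 0.47 ± 0.13 (adjusted p = 0.0578). Without 1 array, 13 to 17 of the 20 genes were called.

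Toll-like and C-type lectin receptors gave 11 of 13 higher and none lower, with a median of 1.84. Clec5a rose at least 6.01-fold and Clec4n by 2.64 ± 0.39, while Clec7a, the receptor for fungal beta-glucan, read 13.36 to 13.76 in OVA/PM and was also high, at 11.07 to 11.35, on the arrays labelled PM. Tlr4, the endotoxin receptor, was 0.44 ± 0.18 higher without being called (adjusted p = 0.161). Without 1 array 8 to 12 of the 13 were called. Of 7 Fc receptors, which bind antibody, 6 rose (2 without OVA/PM replicate 3 or replicate 2 of the arrays labelled PM, 3 without OVA/PM replicate 2), led by Fcgr4 (3.08 ± 0.58, lost in 4 of 6 fits that leave out an array), Fcgr1 (2.53 ± 0.31) and Fcgr2b (2.29 ± 0.29). Fcer2a, the low-affinity IgE receptor, was higher by 1.51 ± 0.37, and that call was lost in 5 of the 6 fits.

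The lysosome and the tissue proteases followed. Of 17 cathepsin and lysosome genes 12 rose and none fell, by a median of 0.78 (8 to 11 called without 1 array), and Ctsk, a collagen-degrading cathepsin, stood out with 12.67, 12.91 and 12.79 in OVA/PM against 9.54, 9.05 and 9.75. Its rise was 3.34 ± 0.19 (adjusted p = 0.000652), whereas Ctsb, Ctsl and Ctsd, which most cells use, rose by 0.78 to 0.88. Lamp1, a structural protein of the lysosomal membrane, differed by 0.04 ± 0.08. Among matrix metalloproteinases and their inhibitors 7 of 12 rose. Mmp13, an interstitial collagenase, rose at least 6.62-fold, the neutrophil collagenase Mmp8 rose by 3.61 ± 0.41, and the inhibitor Timp1 rose by 3.93 ± 0.32, while Timp2 differed by -0.24 ± 0.08 (adjusted p = 0.109) and Timp3 by -0.48 ± 0.15 (adjusted p = 0.089). Mmp9, the gelatinase of neutrophils and macrophages, read 7.25, 8.38 and 7.4 in OVA/PM against 7.37, 6.47 and 6.81, and the groups overlapped.

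**Figure D2:**
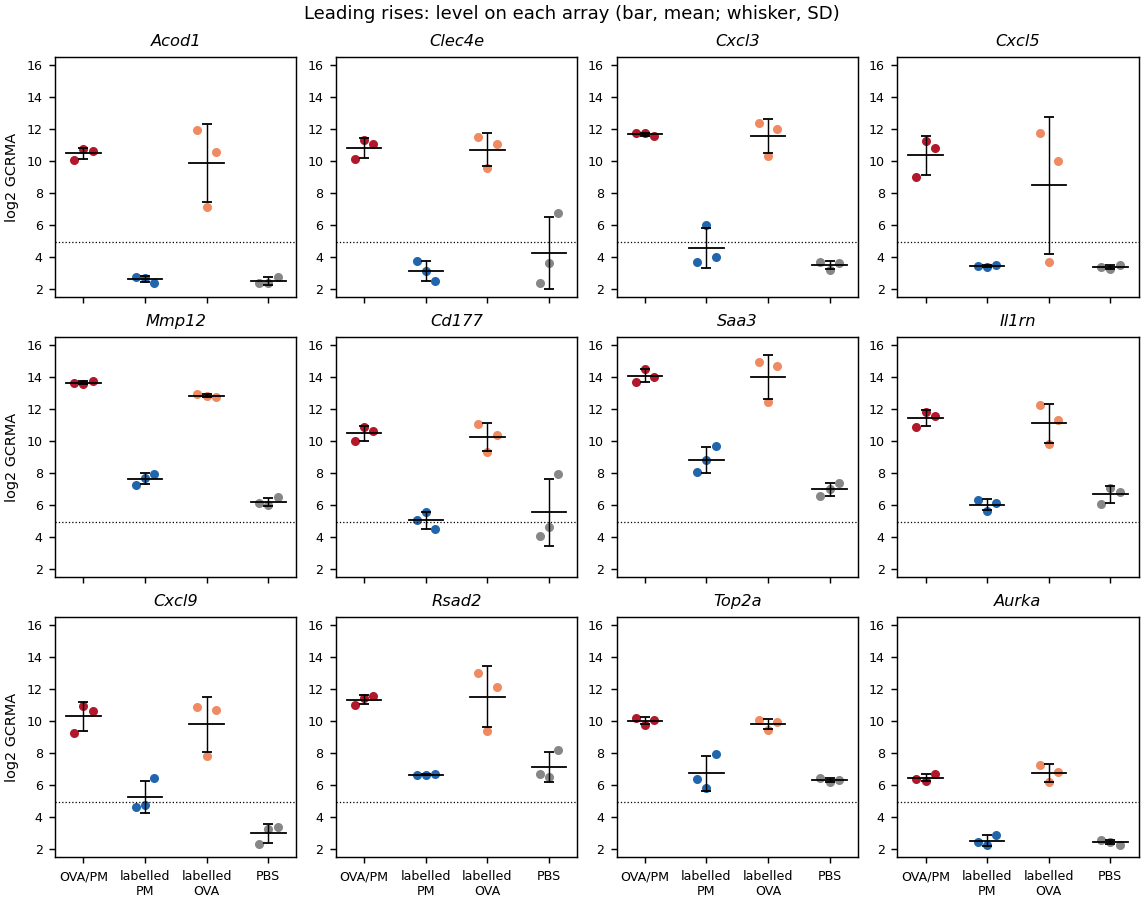
Log2 GCRMA level of 12 genes that rose, on each of the 12 arrays, in the order OVA/PM, arrays labelled PM, arrays labelled OVA and PBS; bars are means, whiskers SD, and the dotted line is the floor of 4.93. In every panel the 3 OVA/PM points lie above the 3 points of the arrays labelled PM; in Cxcl5 the arrays labelled OVA read 11.75, 3.65 and 9.95, the widest spread shown.

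Of 7 CXC chemokine genes, most of which draw neutrophils, 4 rose, 1 of them the platelet factor Pf4. Cxcl3, a CXC chemokine that draws neutrophils, read 11.70, 11.72 and 11.54 in OVA/PM against 3.65, 5.96 and 3.96, where 1 of the 3 arrays labelled PM reached the floor, and its fitted difference was 7.13 ± 0.57. Cxcl5, made largely by epithelium, read 8.97, 11.21 and 10.79 against 3.41, 3.37 and 3.45, a rise of at least 42.0-fold. Cxcl1 was higher by 2.30 ± 0.34. Cxcl2 read 10.53, 11.41 and 10.90 in OVA/PM against 4.74, 9.92 and 4.21, so that replicate 2 of the arrays labelled PM came close to the OVA/PM values, and the difference of 4.66 ± 1.44 was not called (adjusted p = 0.0832). Platelet factor Pf4 rose by 1.13 ± 0.09, and Cxcl15, a chemokine of lung epithelium, differed by 0.12 ± 0.11 (adjusted p = 0.521).

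The genes Cxcl3, Cxcl1 and Cxcl2 lie near each other on chromosome 5, and their upstream sequence is shown because the 3 genes share a motif there. The motif searched, on both strands, was GGG and TTTCC with any 2 bases between them, a form of the NF-kB site, in the 250 bases before each start of the RefSeq promoters (build GRCm38.p6). It occurs in 1.4% of 32851 promoters and in 3 of the 6 with a promoter among the 7 chemokines, and it was not found in the windows of Pf4, Ppbp and Cxcl15. Here and for the motifs below, a gene counted if any of its promoters held a match, whereas percentages are over single promoters. Capitals mark the matches in these stretches from 110 to 51 bases before the start, chr5:90785991-90786050 for Cxcl3, chr5:90891135-90891194 for Cxcl1 and chr5:90903789-90903848 for Cxcl2, all on the plus strand.
Cxcl3: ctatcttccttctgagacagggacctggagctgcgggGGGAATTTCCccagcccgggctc
Cxcl1: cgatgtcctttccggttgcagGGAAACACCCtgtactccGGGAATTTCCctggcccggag
Cxcl2: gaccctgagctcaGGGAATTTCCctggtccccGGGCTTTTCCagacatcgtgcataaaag
A match is a run of letters and says nothing about binding in these lungs.

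Neutrophil genes were split. Of the 9 tested 5 rose, and the median difference was 2.23. Cd177, a surface glycoprotein of neutrophils, read 9.97, 10.87 and 10.58 in OVA/PM against 5.03, 5.53 and 4.51, and the granule proteins Ltf and Lcn2, both also made by epithelium, rose by 2.66 ± 0.15 and 2.93 ± 0.27. The calprotectin subunits did not pass. S100a8 read 11.44, 13.41 and 12.79 in OVA/PM against 12.00, 10.66 and 9.60, and the groups overlapped (adjusted p = 0.152), as did those of S100a9 (adjusted p = 0.191). On the level of the whole list OVA/PM replicate 1 was lowest of its group, at 10.04 against 11.37 for the highest OVA/PM array and 7.89 to 8.66 on the arrays labelled PM, and without it 6 of the 9 genes were called.

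Among CC chemokines 6 of 11 rose and none fell, with 4 higher without OVA/PM replicate 3 and 5 to 7 without another array. Ccl4, a chemokine of activated macrophages, read 6.66, 7.85 and 6.96 in OVA/PM against 2.25, 2.36 and 2.27, at least 4.69-fold. Ccl9 was higher by 2.28 ± 0.28, and Ccl3 by 4.12 ± 0.91 with its call lost in 5 of the 6 fits that leave out an array. Ccl2, the main monocyte chemokine, was at least 2.54-fold higher by its means but read 5.44, 7.87 and 5.52 in OVA/PM and was not called (adjusted p = 0.065). The receptor Ccr1 rose by 2.78 ± 0.20, and Ccr2, on monocytes, by 0.70 ± 0.12.

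Interferon-induced genes gave 11 of 18 higher and none lower, with a median of 1.41. Rsad2, which encodes the antiviral protein viperin, read 11.02, 11.42 and 11.54 in OVA/PM against 6.64, 6.63 and 6.65 (4.69 ± 0.15, adjusted p = 8.19e-05). Mx1, an antiviral GTPase, rose at least 9.0-fold, Irf7, the transcription factor that amplifies type I interferon, by 3.71 ± 0.14, Oas1a by 3.12 ± 0.21 and Ifit1 by 2.81 ± 0.21. Genes best known as targets of interferon gamma were less uniform. The GTPases Igtp, Irgm1, Iigp1, Gbp2 and Gbp3 were not called, and in each of them replicate 2 of the arrays labelled PM read highest of its group. In Igtp the OVA/PM arrays read 11.39, 12.23 and 11.83, all below the 12.65 of that array. Without it 15 of the 18 genes were called, and without any other single array 11. The chemokines Cxcl9 and Cxcl10, which are induced by interferon and draw activated T cells, did rise: Cxcl9 read 9.27, 10.95 and 10.60 against 4.65, 4.73 and 6.41, and Cxcl10 read 10.13, 11.14 and 10.60 against 4.9, 6.11 and 6.68.

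The promoters of Ifit1 and Oas1a are shown because their genes rose and hold a pair of GAAA with any 2 bases between them, the core of an interferon-stimulated response element, searched on both strands of the same windows. It occurs in 3.0% of all promoters and in 9 of the 14 with a promoter on the list, and Ifit1 and Oas1a each hold 2 matches, which overlap in Oas1a. Among those 9 are genes that were called, such as Rsad2, and genes that were not, such as Igtp, Irgm1, Gbp2 and Gbp3. The stretches run from 120 to 61 bases before the start of Ifit1 (chr19:34640769-34640828, plus strand) and from 60 to 1 before the start of Oas1a (chr5:120907526-120907585, minus strand), with matches in capitals.
Ifit1: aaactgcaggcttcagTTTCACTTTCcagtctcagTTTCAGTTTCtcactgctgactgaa
Oas1a: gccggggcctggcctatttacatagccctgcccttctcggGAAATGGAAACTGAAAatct

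The IL-1 and TNF families gave 11 of 14 higher and none lower, with 6 to 10 higher without 1 array and 6 without OVA/PM replicate 3. Il1rn, the natural antagonist of the IL-1 receptor, read 10.83, 11.81 and 11.56 in OVA/PM against 6.28, 5.63 and 6.14, a rise of 5.38 ± 0.29 (adjusted p = 0.000546). Il1b rose by 2.59 ± 0.51 and Il1r2, a decoy receptor, by 3.43 ± 0.65, and these calls were lost in 3 and 4 of the fits that leave out an array. Il6 read 8.87, 8.76 and 8.69 in OVA/PM against 6.56, 4.81 and 4.17 (3.59 ± 0.56), and Socs3, a feedback inhibitor of IL-6 signaling, rose by 1.10 ± 0.17, whereas the receptor subunits Il6ra and Il6st and the transcription factor Stat3 differed by 0.00, -0.21 and 0.10 and were not called. Among these genes the antagonist, the decoy receptor and the feedback inhibitor rose beside the cytokines.

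Acute phase and antimicrobial genes rose in 8 of 14. Saa3, the serum amyloid A made outside the liver, read 13.69, 14.49 and 13.96 in OVA/PM against 8.02, 8.78 and 9.66, which is 37.5-fold. Orm1 rose by 1.98 ± 0.31 and Pigr, which carries IgA across epithelium, by 1.54 ± 0.19, whereas haptoglobin Hp stayed between 13.79 and 14.08 on all 6 arrays. Complement gave 9 of 17 higher, 11 without replicate 3 of the arrays labelled PM and 4 to 7 without any other array, fewest without OVA/PM replicate 3. Factor B, Cfb, of the alternative pathway read 11.61, 12.73 and 12.32 against 8.49, 8.10 and 8.95 (3.71 ± 0.33), the receptor C3ar1 rose by 2.52 ± 0.36, and the C1q chains C1qa, C1qb and C1qc rose by 1.26, 1.25 and 1.22. The calls of C1qb and C1qc were lost in 5 of the 6 fits that leave out an array.

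Genes of cell division were the most uniform list. All 20 mitosis genes tested were higher in OVA/PM, by 2.17 to 3.91 with a median of 3.24 (2.59 with values under the floor raised to it). Aurka, a kinase of the spindle poles, read 6.39, 6.24 and 6.68 in OVA/PM against 2.41, 2.27 and 2.90, at least 2.84-fold. Ccnb2, the B2 cyclin of mitosis, read 9.13, 8.70 and 8.85 against 5.05, 5.04 and 6.33, and Cdk1, its kinase, 9.09, 8.59 and 8.95 against 4.88, 4.47 and 6.57. Top2a, the topoisomerase of dividing cells, read 10.17, 9.76 and 10.08 against 6.37, 5.83 and 7.94. In all 20 genes replicate 3 of the arrays labelled PM was the highest of its group, and the mean of the 20 genes was 7.81 to 8.14 on the OVA/PM arrays, 5.76 on that array and 4.34 on the lowest of its group. Without 1 array 15 to 20 of the 20 genes were called. Of 20 DNA replication genes 17 rose and none fell, by a median of 1.08. Uhrf1, which maintains DNA methylation at the replication fork, rose by 3.08 ± 0.21, Tk1 by 2.77 ± 0.33 and Rrm2, a subunit of ribonucleotide reductase, by 2.82 ± 0.49, while Pcna, the sliding clamp, which was already at 12.16 to 12.37 on the arrays labelled PM, rose by 0.56 ± 0.10. Without 1 array 10 to 16 of the 20 were called, 10 without OVA/PM replicate 1 or 3 and 11 without OVA/PM replicate 2.

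The promoters of Ccnb2 and Cdk1 are shown because the members of this list, which moved together, often hold the CCAAT box bound by NF-Y. The letters CCAAT, on both strands, occur in 14 of the 16 mitosis genes with a promoter and in 33.8% of all promoters, counted as for the chemokines. Birc5 and Nusap1 lack them in this window although they rose too. The stretches are the last 100 bases before the start, chr9:70421555-70421654 for Ccnb2 and chr10:69352913-69353012 for Cdk1, both on the minus strand, with matches in capitals.
Ccnb2: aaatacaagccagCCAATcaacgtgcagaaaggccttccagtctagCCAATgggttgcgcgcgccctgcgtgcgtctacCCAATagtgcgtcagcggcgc
Cdk1: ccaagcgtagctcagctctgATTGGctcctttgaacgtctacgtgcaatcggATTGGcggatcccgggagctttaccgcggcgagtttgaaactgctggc
The 3 boxes of Ccnb2 start 87, 54 and 21 bases before the gene, and the 2 of Cdk1 start 80 and 48 bases before it.

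T cell genes rose in 8 of 12, with none lower and a median of 1.15. Icos, a costimulatory receptor of activated T cells, read 7.72, 8.39 and 8.23 in OVA/PM against 5.12, 4.62 and 5.06, and the inhibitory receptor Ctla4 rose by 2.26 ± 0.43, lost in 4 of the 6 fits. The CD3 subunits Cd3d and Cd3g of the T cell receptor complex rose by 1.22 ± 0.20 and 1.07 ± 0.17, whereas the subunit Cd3e and Zap70 were not called. Cd4 rose at least 1.36-fold, and Cd8a and Cd8b1 differed by 0.60 ± 0.23 and 0.61 ± 0.24 without being called. Of 8 dendritic cell genes 4 rose, among them the T cell chemokines Ccl17 (at least 2.88-fold) and Ccl22 (1.89 ± 0.21). B and plasma cell genes gave 1 of 11 higher, Cd22, and cytotoxic genes 1 of 6, granzyme Gzmb, whose call was lost in 5 of the 6 fits. Of all genes tested 9.13% were called higher, and the B and plasma cell count is near that share. Of the eosinophil genes 2 were measurable. Siglecf, a surface lectin of eosinophils and alveolar macrophages, read 8.52, 9.33 and 9.06 in OVA/PM against 8.44, 8.06 and 9.36, and Rnase2a, an eosinophil-associated ribonuclease, read 9.77, 9.89 and 10.25 against 9.07, 7.98 and 10.49. In both the groups overlapped, as they did for the eosinophil chemokine Ccl11 (0.70 ± 0.45, adjusted p = 0.352). The defining granule genes Epx and Prg2 were under the floor on all 12 arrays.

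Of 7 type 2 cytokine and receptor genes tested, Il33, an epithelial alarm cytokine, rose by 1.31 ± 0.11 and Crlf2, part of the TSLP receptor, by 0.62 ± 0.09, and Tslp itself fell by 0.95 on the log2 scale (adjusted p = 0.049, lost in 5 of the 6 fits). Genes of alternatively activated macrophages gave 6 of 11 higher. Arg1, which turns arginine into ornithine, read 5.10, 5.60 and 5.14 in OVA/PM against 2.05, 2.02 and 2.06, at least 1.27-fold, and its mitochondrial relative Arg2 rose by 3.13 ± 0.28. Retnla and 4 others of the list were not called: the chitinase-like Chil3 differed by 1.02 ± 0.38 (adjusted p = 0.133), Chil4 by 0.01 ± 0.59 and the mannose receptor Mrc1 by 0.23 ± 0.17. Without replicate 3 of the arrays labelled PM 8 of the 11 were called, and 5 without any other array.

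**Figure D3:**
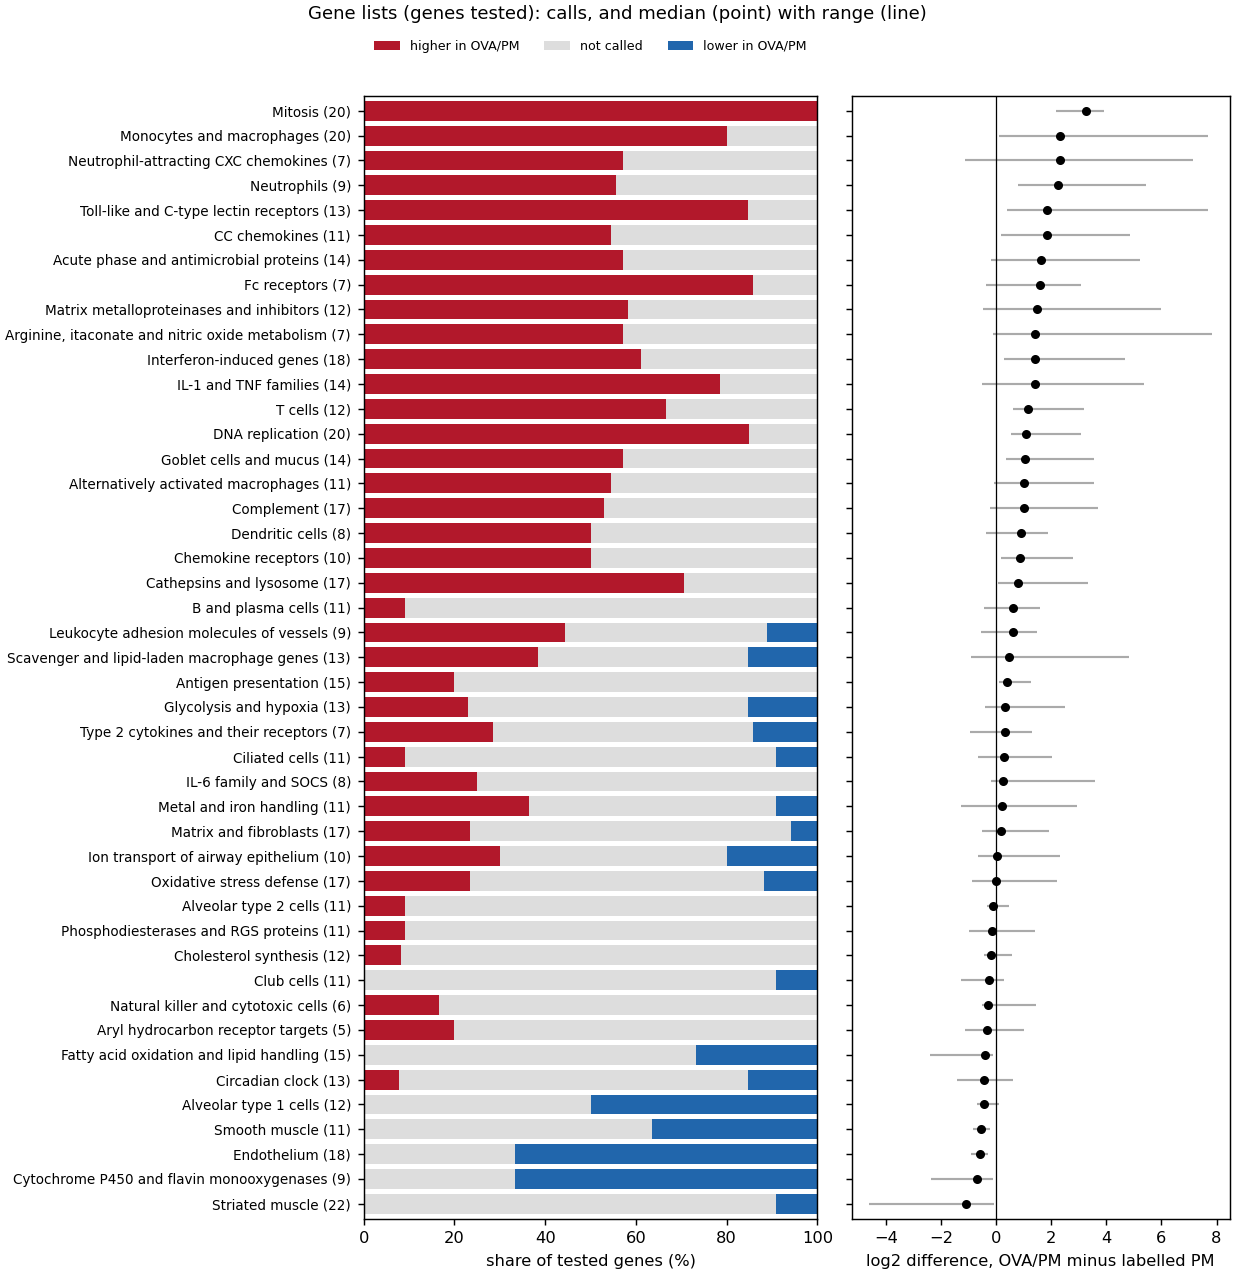
For each gene list with at least 5 genes tested (number in parentheses), the left panel gives the share of genes called higher (red), not called (grey) and called lower (blue) in OVA/PM, in percent, and the right panel the median (point) and the range (line) of the log2 difference, OVA/PM minus arrays labelled PM. Mitosis is the only list with every gene called, and lists with falls and no rises are endothelium, alveolar type 1 cells, muscle, P450 enzymes, lipid handling and club cells.

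Of 14 mucous cell genes 8 rose and none fell, and the call of several others depended on 1 array. Clca1, a secreted protein of goblet cells, read 14.68, 14.49 and 14.71 in OVA/PM against 14.03, 13.95 and 14.88, and the intelectin Itln1 read 13.42, 12.97 and 12.90 against 11.72, 12.11 and 12.85. Neither was called (adjusted p = 0.415 and 0.109), nor was the mucin Muc5b (0.53 ± 0.19), and all 3 were called when replicate 3 of the arrays labelled PM was left out. Agr2, a disulfide isomerase that goblet cells need to fold mucin, read 10.63, 10.62 and 10.62 in OVA/PM against 7.67, 7.18 and 8.15, a rise of 2.96 ± 0.23 (adjusted p = 0.00149). Spdef, the transcription factor of goblet cell differentiation, was measurable in OVA/PM only, at 5.28, 6.32 and 5.96 against 2.69, 2.69 and 2.57, at least 1.90-fold. The mucin Muc5ac read 9.45, 9.75 and 9.82 against 5.51, 5.14 and 7.72, and its call (3.55 ± 0.64, adjusted p = 0.018) was lost in 5 of the 6 fits. The trefoil peptide Tff2 rose by 1.59 ± 0.23. In 11 of the 14 genes replicate 3 of the arrays labelled PM was the highest of its group, with a list mean of 9.55 against 8.86 for the lowest, and without it 13 of the 14 genes were called, against 6 or 7 without any other array. Of 10 ion transport genes of the airway 3 rose, led by pendrin, Slc26a4 (2.30 ± 0.21), and the sodium channel subunits Scnn1b and Scnn1g fell by 0.67 and 0.54 on the log2 scale.

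**Figure D4:**
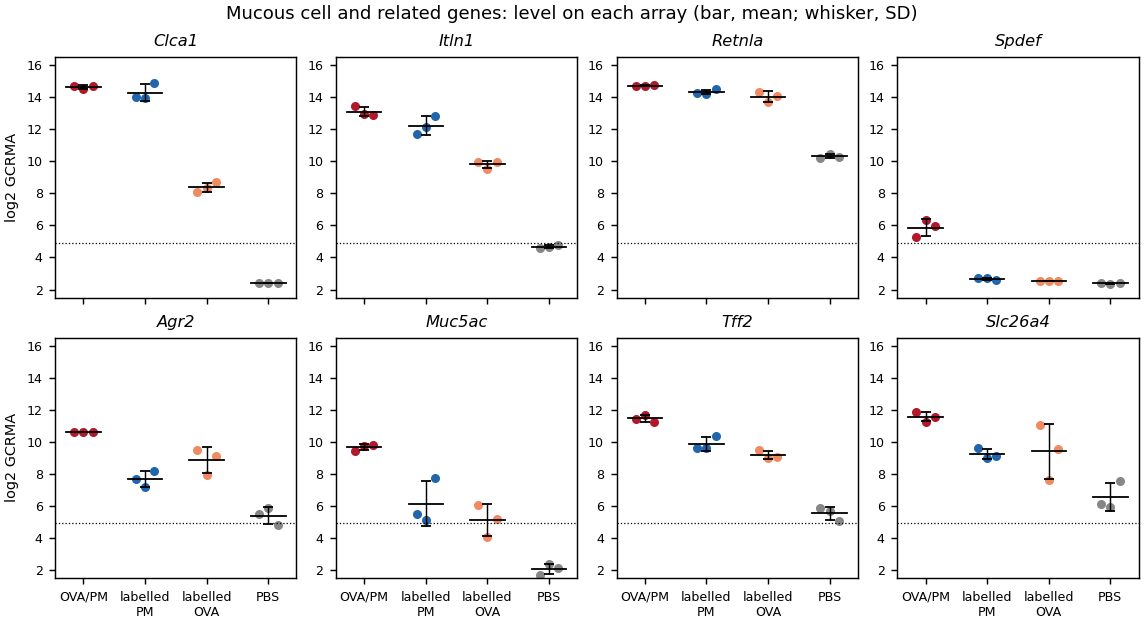
Log2 GCRMA level of 8 mucous cell and related genes on each array, in the order OVA/PM, arrays labelled PM, arrays labelled OVA and PBS; bars are means, whiskers SD and the dotted line the floor of 4.93. Clca1, Itln1 and Retnla are close in OVA/PM and the arrays labelled PM and lowest in PBS, whereas Spdef is above the floor in OVA/PM alone.

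Vessel genes made up the most regular fall. Of 18 endothelial genes 12 were lower in OVA/PM and none higher, against 6.77% of all genes lower, with a median of -0.59 and a range of -0.93 to -0.31. The receptor kinase Tie1 read 11.09, 10.94 and 10.69 in OVA/PM against 11.74, 11.74 and 12.05 (adjusted p = 0.0113). Its relative Tek, which binds angiopoietins, fell by 0.93 on the log2 scale (adjusted p = 0.00357), Ramp2, part of the adrenomedullin receptor, by 0.69, and the junction genes Pecam1 and Cdh5 by 0.65 and 0.59. The mean of the 18 genes was 11.90 to 12.02 on the OVA/PM arrays and 12.52 to 12.54 on the arrays labelled PM, without overlap. Without 1 array 6 of the 18 were called, or 8 where that array was OVA/PM replicate 2, and Pecam1 and Cdh5 were lost in 5 and 6 of the 6 fits. Of 9 leukocyte adhesion genes 4 rose and 1 fell (2 higher without OVA/PM replicate 2, OVA/PM replicate 3 or replicate 1 of the arrays labelled PM). Icam2, an adhesion molecule of endothelium, fell by 0.55 on the log2 scale (lost in 4 of the 6 fits), while Vcam1 and Selp rose by 0.78 ± 0.10 and 1.12 ± 0.25 (the call of Selp lost in 5 of the 6 fits), and Icam1 stayed between 13.22 and 13.38 on all 6 arrays.

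Alveolar type 1 genes, of the flat cells of gas exchange, fell in 6 of 12, with a median of -0.45, and in 1 without replicate 1 or 2 of the arrays labelled PM, 3 without OVA/PM replicate 1 or 3, 4 or 5 without another array. Rtkn2 fell by 0.71 on the log2 scale and was kept in all fits that leave out an array, while the other 5 calls, Igfbp2, Cav1, Hopx, Emp2 and Clic5, were each lost in 3 or more. Ager, the most abundant of the list, differed by -0.24 ± 0.09 (adjusted p = 0.128). Type 2 genes, of the cells that make surfactant, moved little: Sftpd, a collectin, rose by 0.47 ± 0.11, lost in every fit that leaves out an array, and the other 10 were not called. Of 11 club cell genes 1 was lower, Cyp2f2, and of 11 ciliated cell genes 1 was higher, Ccno, which drives the making of many cilia (2.01 ± 0.17), and 1 lower, Tppp3. The club and ciliated cell counts are near the shares over all genes tested, 9.13% higher and 6.77% lower.

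Drug and lipid metabolism fell in part. Of 9 P450 and flavin monooxygenase genes 6 were lower, with a list median of -0.69, and 2 to 4 without 1 array (2 without OVA/PM replicate 2 or replicate 1 of the arrays labelled PM, 3 without OVA/PM replicates 1 or 3 or replicate 2 of the arrays labelled PM, and 4 without its replicate 3). Cyp4b1, an abundant lung P450, read 13.58, 13.56 and 13.65 in OVA/PM against 14.28, 14.48 and 14.56, and Fmo1 fell by 0.83 on the log2 scale. The carboxylesterase Ces1g read 5.94, 5.01 and 4.03 against 7.33, 6.99 and 7.82, with its call lost in 4 of the 6 fits. Of the lipid genes 4 of 15 fell, and 2 without OVA/PM replicate 3. Of all genes tested 6.77% were called lower with all arrays. Acaa1b, a peroxisomal thiolase, had the largest fall among called genes once values under the floor were raised to it, at 6.17, 6.48 and 6.35 in OVA/PM against 8.58, 8.47 and 9.17 (5.29-fold lower, adjusted p = 0.00167), and Fabp1, a fatty acid binding protein, fell by 1.54 on the log2 scale. Pck1, of gluconeogenesis and glyceride synthesis, read 8.00, 8.43 and 8.11 against 9.85, 10.32 and 9.70, and the fat cell hormone Adipoq fell by 0.88.

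Other large falls were the glutamate receptor subunit Gria1 (-2.17 ± 0.43), the glycosyltransferase Galnt15 (-1.94 ± 0.26), Efhd1 (-1.81 ± 0.16) and a set of muscle genes. Casq1, the calcium store protein of skeletal muscle, Mybpc2, Cmya5 and Txlnb were each lost in 4 or 5 of the fits that leave out an array. Skeletal muscle genes stood lowest on OVA/PM replicate 1. Tnnt3, fast troponin T, read 2.78, 7.73 and 6.98 in OVA/PM against 11.15, 9.47 and 9.05, and Myh1, fast myosin, read 2.89, 10.11 and 9.32 against 13.15, 11.59 and 11.51. Heart muscle genes varied less, with Myh6, the atrial myosin, at 12.64, 13.05 and 12.86 against 13.21, 13.90 and 13.39. Over the 22 muscle genes the level of the 3 OVA/PM arrays was 8.03, 10.24 and 9.71, against 11.55, 11.41 and 10.64 on the arrays labelled PM. The median difference was -1.10, and 2 genes were called, Myot and Ckmt2, none without OVA/PM replicate 1, OVA/PM replicate 3 or replicate 2 of the arrays labelled PM, 1 without its replicate 1, 4 without OVA/PM replicate 2 or replicate 3 of the arrays labelled PM, and 16 with significance analysis of microarrays (SAM), the test the methods name. Of all genes tested 6.77% were called lower. The part of muscle tissue in any other fall was not tested. Smooth muscle gave 4 of 11 lower, among them Des and Itga8, and 0 to 3 without 1 array, with 0 where OVA/PM replicate 3 or replicate 2 of the arrays labelled PM was left out, and 8 with SAM.

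**Figure D5:**
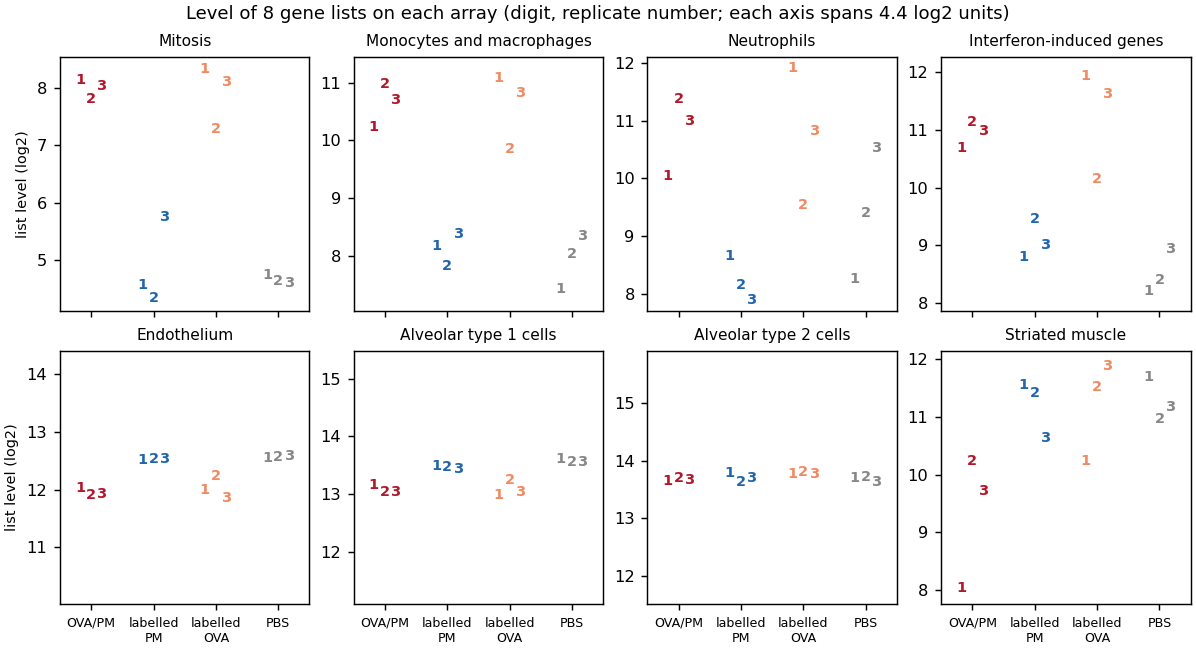
Mean log2 GCRMA level of the tested genes of 8 lists on each array, in the order OVA/PM, arrays labelled PM, arrays labelled OVA and PBS, with digits for replicate numbers and the same span on every axis. Endothelial levels of OVA/PM lie together below those of the arrays labelled PM, alveolar type 2 levels lie between 13.62 and 13.8 on all 12 arrays, and OVA/PM replicate 1 has the lowest striated muscle level.

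Several further groups, some of them related to particles or stress, moved in part or both ways. Of all genes tested 9.13% were called higher and 6.77% lower. Of 17 oxidative stress genes 4 rose, among them heme oxygenase Hmox1 (1.5 ± 0.25), and 2 fell, Gstm1 and catalase Cat, and the median was -0.01. Of 5 targets of the aryl hydrocarbon receptor Cyp1b1 rose by 1.02 ± 0.21, lost in 4 of the 6 fits, while Cyp1a1 differed by -0.77 ± 0.25 (adjusted p = 0.0987). Cholesterol synthesis had 1 of 12 called. Iron and metal genes went both ways, 4 of 11 higher and 1 lower (2 and 1 without OVA/PM replicate 3), with the phagosomal metal transporter Slc11a1 higher by 2.77 ± 0.25 and hepcidin, Hamp, lower by 1.29 on the log2 scale. Of 13 clock genes Nr1d1 and Cry2 fell and Bhlhe40 rose, each lost in 5 or 6 of the fits. Matrix genes gave 4 of 17 higher, with tenascin Tnc at 1.91 ± 0.25 and the collagen chains Col1a1 and Col3a1 at 1.49 and 1.09, and Tcf21 lower. Without OVA/PM replicate 2, OVA/PM replicate 3 or replicate 3 of the arrays labelled PM 1 matrix gene was called higher, with the calls of Col1a1, Col3a1 and Tcf21 each lost in 4 of the 6 fits. Antigen presentation gave 3 of 15 higher, and 1 without OVA/PM replicate 3 or replicate 3 of the arrays labelled PM. The costimulatory ligand Cd86 rose by 1.27 ± 0.11, and the class II chain H2-Eb1 and the immunoproteasome subunit Psmb8 rose by 0.62 and 0.71, each lost in 5 of the 6 fits, while the class II chains H2-Aa and H2-Ab1 were not called.

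The arrays labelled OVA against PBS share none of these 6 arrays. By the labels this is ovalbumin in lungs without particles, and with the names exchanged it would be particles without ovalbumin. It called 4326 of 22498 probe sets (19.2%), 1953 higher (8.68%) and 2373 lower (10.5%), with 407 called without replicate 3 of the arrays labelled OVA. Of the 1803 genes called in OVA/PM against the arrays labelled PM, 1785 differed in the same direction there (1030 of the rises and 755 of the falls), and 1074 were called there as well, 59.6% of those 1803 and 50.6% of the 2124 genes called there. The share with the same direction was not counted over all 11339 genes, so the 1785 do not set the called genes apart. Acod1 read 11.89, 7.12 and 10.51 on the arrays labelled OVA, and Cxcl3 read 12.36, 10.32 and 11.96. For both genes every PBS array was under the floor. Mmp12 rose by 6.64 and Top2a by 3.51 in that comparison, and Tek fell by 0.75. Over the 11339 genes the differences correlated with r = 0.85, as a description over genes, which are not independent.

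Whether the 2 differences were unequal was tested with all 12 arrays in 1 limma fit, in which the interaction is the first difference (OVA/PM minus arrays labelled PM) less the second (arrays labelled OVA minus PBS). It does not change if the 2 single-exposure names are exchanged. On this log2 scale a negative value means that the first difference was the lower. It does not say whether the level with both exposures passed the sum of the single effects, which was not tested here. By an index built on differences in level, the paper reported Clca1 and Itln1, under older symbols, as synergistic. Of 22688 probe sets 6 were called (0.0264%), 3 in each direction (0.0132%), beside 1412 with an unadjusted p under 0.05. Clca1 had the largest interaction, -5.64 ± 0.32 (adjusted p = 0.000102): it averaged 14.63 in OVA/PM and 14.29 on the arrays labelled PM, and 8.37 on the arrays labelled OVA and 2.39 in PBS. Itln1 followed at -4.26 ± 0.36, with means of 13.09 in OVA/PM and 12.22 on the arrays labelled PM, and of 9.81 on the arrays labelled OVA and 4.67 in PBS. Retnla, a resistin-like protein of epithelium and alternatively activated macrophages, gave -3.33 ± 0.21. These 3 genes were lowest in PBS and higher in each of the other groups, and their step from the arrays labelled PM to both exposures was under 1 on the log2 scale. Spdef went the other way, 3.06 ± 0.28 (adjusted p = 0.00331), since its means were 5.85 in OVA/PM, 2.65 and 2.54 on the arrays labelled PM and OVA, and 2.39 in PBS. Of these 4, Spdef was the only one measurable in OVA/PM alone, and all 4 were called whichever of the 12 arrays was left out. Every PBS array of Clca1 and Itln1 was under the floor, as was every array of Spdef outside OVA/PM. The interaction sizes of Clca1, Itln1 and Spdef therefore rest in part on values under the floor, which have no order. Muc5ac (adjusted p = 0.968) and Agr2 (adjusted p = 0.949) were not called in this test.

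Called probe sets of 1 gene had the same direction in nearly every case. Several probe sets were tested for 4951 genes, and those that were not called were not compared. Of 418 genes with 2 or more called probe sets 417 had all of them in 1 direction, and the exception was Cxcl12, a chemokine of stroma and endothelium.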

How the data were processed

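Total RNA of whole lung was labelled with biotin and hybridized to Affymetrix whole-genome mouse expression arrays. The authors computed probe set values with GCRMA, and the deposited table holds log2 values of 45101 probe sets on 12 arrays. Array numbers, 3 per group, limit the precision. Here 64 control probe sets were left out, and a probe set entered a test when all 3 arrays of at least 1 group reached the median of all values (4.93), in place of the detection calls of the methods, which were not used here. Tests used limma 3.58.1 in R 4.3.3 on the 6 arrays (12 for the interaction), with Benjamini-Hochberg adjustment over all probe sets tested. Significance analysis of microarrays (SAM), which the methods name, was run as an alternative over all 20 relabelings. The platform annotation gave 1 symbol for 34958 probe sets, several for 932 and none for 9211. A gene was represented by its probe set with the highest mean over 12 arrays among those with 1 symbol. The level of a gene list is the mean over its tested genes, and a gene may stand on several of the 50 lists. Members and lists were chosen with earlier results of these data known. Genes were named by rule (the 15 largest rises and 10 largest falls, up to 4 called genes of each list, the 2 highest genes of a list with none called, and genes the paper names), and other genes of the lists were named after their values were seen. Promoter sequences are from RefSeq (GRCm38.p6). The fits were tested on simulated data. Alternatives were filters, an offset of 16, quantile normalization, a replicate block, a fit of all 4 groups, SAM and leaving out each array.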

Additional observations from a re-analysis of the deposited data

Results flagged for a closer look

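The 6 probe sets called in the interaction test differed between the contrast of OVA/PM minus arrays labelled PM and that of arrays labelled OVA minus PBS. Clca1 (-5.64), Itln1 (-4.26), Retnla (-3.33) and Spdef (3.06) are described in the report. The sizes for Clca1, Itln1 and Spdef rest in part on values under the floor. The fifth, Pde4dip, which binds a phosphodiesterase at the Golgi and centrosome, had an interaction of 0.94 (adjusted p = 0.0349): it averaged 7.66 in OVA/PM and 7.59 on the arrays labelled PM, and 7.11 on the arrays labelled OVA and 7.98 in PBS. The sixth, probe set 1440111_at, has no symbol in the annotation used, and its interaction was 1.38 (adjusted p = 0.0397), with means of 7.38 in OVA/PM and 6.68 on the arrays labelled PM, and of 6.8 on the arrays labelled OVA and 7.47 in PBS. The last 2 calls were lost in 10 and 9 of the 12 fits that leave out 1 array.

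Outside the lung genes, the bacterial hybridization controls stood apart on OVA/PM replicate 3. The mean of 3 BioB probe sets was 6.65 there and at most 4.68 on the other 11 arrays, and that of 2 BioC probe sets was 7.56 and at most 3.95. Its 3' minus 5' difference for Gapdh was -0.04, inside the range of the other arrays.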

How the results depend on the processing

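None of the 155 named genes called changed sign under any alternative run. The groups of every called gene lay apart, so leaving out 1 array could not have turned a sign. Nor could the filters, the offset or SAM, so the kept signs are no evidence of stability. The 2894 probe sets called became 1377 with a replicate block and 5555 (2722 higher, 2833 lower) with SAM, against 1600 higher and 1294 lower in limma, and 1367 to 1870 without 1 array. The balance of calls turned with SAM and with the filter at the 75th percentile (1262 higher, 1413 lower). The 994 past 2-fold became 466 with the filter at the 75th percentile (8.65), and 759 to 940 without 1 array. The list genes called, 248 of 536, were 159 to 223 without 1 array, and the named genes called, 155 of 170, were 98 to 133, both fewest without OVA/PM replicate 3. For arrays labelled OVA against PBS, 4326 (1953 higher, 2373 lower) became 2432 with no filter (1244 higher, 1188 lower), 89 with a replicate block and 407 (without OVA replicate 3) to 5284 (without OVA replicate 2) without 1 array. The 6 interaction calls became 3 with the filter at the 75th percentile and 4 to 11 without 1 array. The causes were not tested. No pairing by replicate number was seen. Deviations of same-numbered arrays from their group means correlated at -0.27, -0.04 and -0.03, and no OVA/PM array correlated best with its own number. So few correlations cannot exclude an effect shared by replicate number. Whether calls lost with the block are weaker effects was not tested. Over single lists SAM called 16 endothelial, 9 alveolar type 1, 16 striated muscle and 8 smooth muscle genes lower and 12 goblet and 7 antigen presentation genes higher. The median of the oxidative stress list, -0.01, lay between -0.16 and 0.09 without 1 array. With 3 arrays a group 1 gene cannot go below 0.1 in an exact two-sided permutation test, so single genes rest on the spread that limma shares over genes, and values under the floor have no order.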
